A study of Mus musculus with 9 samples.

Results

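The ubiquitin-conjugating enzymes, or E2 enzymes, were followed in the blood of mice with collagen-induced arthritis (CIA) with and without terahertz (THz) irradiation. Members were taken by name, as every gene of the expression matrix whose symbol starts with Ube2 followed by a letter. There were 37 such genes among 20926, and 32 of them were above 0 in at least 1 library. RNA sequencing was done on 9 blood libraries, 3 in each of 3 groups. All mice were male DBA/1 mice. The labels give 7 weeks, which in the paper is the age at division into groups, before immunization. The Ctrl group had no arthritis and no irradiation. The CIA group was immunized with chick type II collagen in complete Freund's adjuvant, boosted in incomplete adjuvant and not irradiated. The CIA+THz group had the same arthritis and received 0.1 THz waves on the swollen ankle for 30 min a day over 14 days under isoflurane. Isoflurane is described for the irradiated mice alone, so irradiation and anaesthesia cannot be told apart.

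Ubiquitin reaches its targets through a relay. An E1 enzyme activates the modifier, an E2 carries it on a catalytic cysteine, and an E3 ligase brings the E2 to the substrate. Some E2 enzymes carry a related modifier instead, such as SUMO, NEDD8 or the interferon-induced ISG15. Maturing red cells use the system to clear ribosomes and organelles, and Ube2o and Ube2h are the E2 enzymes best known for this step.

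The labels call the samples blood leukocytes, whereas RNA was extracted from total blood. The red cell gene Alas2, the first enzyme of heme synthesis, alone held 11.4% to 16.7% of the summed length-normalized read abundance (FPKM). The leukocyte gene Ptprc (CD45) was also measured, at 66.8 to 150 rescaled FPKM. Rescaled FPKM is the deposited FPKM divided by 1 factor per library, between 0.847 and 1.24, so that a typical gene has the same level in each library. The factors were 1.10 to 1.24 in CIA+THz and 0.847 to 1.06 in the other groups, so rescaling lowered every CIA+THz value relative to the deposited one. The number of genes above 0 per library was 11801 to 12807. Sequencing depth is unknown because FPKM holds no counts. In blood, fewer cells of a type and less RNA per cell cannot be told apart.

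The stretch of coding sequence around the catalytic cysteine is shown for the members whose levels are described most closely, because it marks what makes them E2 enzymes. Each runs 5′ to 3′ and was read from GENCODE M21 transcripts of GRCm38. The capitals mark the codons of the His-Pro-Asn motif and the next cysteine codon.
Ube2l6: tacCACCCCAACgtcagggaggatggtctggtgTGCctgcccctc
Ube2r2: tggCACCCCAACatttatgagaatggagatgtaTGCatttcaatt
Ube2d3: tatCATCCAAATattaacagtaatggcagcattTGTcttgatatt
Ube2c: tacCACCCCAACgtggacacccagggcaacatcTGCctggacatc
Ube2s: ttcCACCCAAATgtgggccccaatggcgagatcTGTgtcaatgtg
Ube2b: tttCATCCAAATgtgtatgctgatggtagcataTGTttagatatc
Ube2f: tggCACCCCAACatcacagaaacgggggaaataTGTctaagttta
Ube2h: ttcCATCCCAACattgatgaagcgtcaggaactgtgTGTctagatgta
The motif codons were found in 23 of the 37 members, and 22 of these had a cysteine codon within 12 codons. In 20 of them the cysteine codon was the eighth after the motif, as in 7 of the sequences above, whereas in Ube2h it was the ninth. Ube2o, which is both an E2 and its own E3 and is much longer (1288 codons against 153 for Ube2l6), did not hold these codons in its annotated transcript. The search was for exact codons, so a missing match says nothing of the enzyme's activity.

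The members spanned more than 4 orders of magnitude in level (compared per length, as FPKM). Ube2l6, the E2 for ISG15, had a mean of 6640 rescaled FPKM over the 9 libraries and ranked 5 among all genes. Ube2r2, which works with cullin-RING ligases, followed at 1478 (rank 44). Next came Ube2d3, a general E2 that starts ubiquitin chains with many ligases, at 462 (rank 141), and Ube2o at 388 (rank 172). Ube2c of the anaphase-promoting complex (APC/C) was at 148 and Ube2b, a RAD6-type E2 of histone ubiquitination, at 141. Ube2l6 was the highest member and Ube2r2 the next in every library of each group. The third place changed with the group: Ube2o was above Ube2d3 in 3 of 3 CIA libraries and in 0 of 3 libraries of both Ctrl and CIA+THz.

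**Figure D1:**
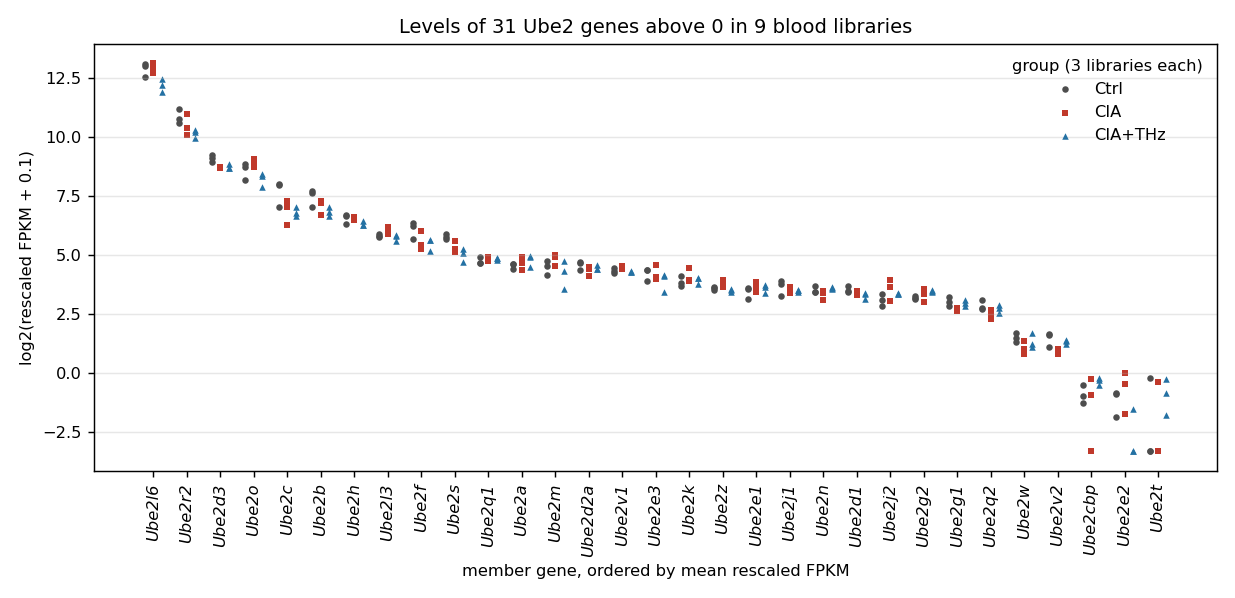
Levels of 31 of the 32 members above 0 in each of the 9 libraries, as log2(rescaled FPKM + 0.1), ordered from the highest mean. Ube2l6 and Ube2r2 stood above the rest in every group, and the 3 rightmost genes had libraries at 0.

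Together the members made up 1.47% to 2.15% of the summed FPKM, and Ube2l6 alone was 62.7% to 72.5% of the members' rescaled sum. A further 18 members had means between 10 and 100 rescaled FPKM, among them Ube2h (88.4), Ube2l3 (57.7), Ube2f (53.7) and Ube2s (42.2). There were 5 members between 1 and 10 and 3 under 1, namely Ube2cbp, Ube2e2 and Ube2t. Ube2cbp is a member by its symbol, although its name is that of an E2C-binding protein. Ube2d2b, Ube2dnl1, Ube2dnl2, Ube2ql1 and Ube2u were at 0 in all 9 libraries. All 32 members above 0 had a mean of at least 0.1 and were tested, with limma, on log2(rescaled FPKM + 0.1) among 12366 genes. A gene was called where its unadjusted p was under 0.05 and its log2 fold change was beyond 0.67 in either direction. No member passed an adjusted p of 0.05 in any comparison, so every call below rests on an unadjusted p.

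The first comparison, CIA against Ctrl, asked what arthritis did to these genes. No member was called by limma (0 of 32), against 9.04% of all genes tested. The unadjusted p was under 0.05 for 2 of 32 members (all genes 17.3%), and both were lower in CIA (lower calls made up 4.25% of all genes, and 8.45% on p alone). The smallest adjusted p among members was 0.196, and 0.154% of all genes passed on the adjusted p. The median log2 fold change of the members was -0.030, beside -0.0051 for all genes.

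Ube2s, the E2 that extends chains on APC/C substrates, had 53.6, 58.0 and 51.1 rescaled FPKM in Ctrl and 47.6, 37.8 and 34.3 in CIA. Each CIA library was below each Ctrl library. The log2 fold change was -0.46 ± 0.15 (SE; limma adjusted p = 0.196). Ube2d3 had 592, 551 and 481 rescaled FPKM in Ctrl and 421, 410 and 425 in CIA. The CIA libraries were again all below Ctrl and close to each other (-0.37 ± 0.13; limma adjusted p = 0.215). The unadjusted p rose above 0.05 for Ube2s without Ctrl library 2 or CIA library 2 or 3 (log2 fold changes of -0.42 to -0.35), and for Ube2d3 without Ctrl library 1 or CIA library 2 (-0.30 and -0.35). Some Ube2d3 reads are uncertain, since 6.46% of its read-length windows also occur in other genes. The largest estimate in CIA was that of Ube2c (-0.81 ± 0.35), which missed the threshold (limma adjusted p = 0.294) and whose group values overlapped. With FPKM as deposited Ube2c was called lower (-0.78 ± 0.30), the 1 call among members. On that scale 4 of 32 members had an unadjusted p under 0.05, all lower. Of all 12366 genes 1083 were called there and 1890 had a p under 0.05, 868 of them lower. Ube2l6 was 7633 ± 1469 (SD, n = 3) in Ctrl and 7603 ± 1113 in CIA, a difference of 0.00 ± 0.30 in log2.

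The second comparison, CIA+THz against CIA, asked what irradiation did in arthritic mice. Of the 32 members 3 were called, Ube2o, Ube2l6 and Ube2e2, each at a lower level after irradiation. Among all genes 4.54% were called, 1.6% in the lower direction. On p alone the members were the same 3, beside 13.2% of all genes (7.33% lower). No gene of the matrix passed an adjusted p of 0.05 in limma (0% of 12366). The members' median log2 fold change was -0.074 and that of all genes 0.025. With FPKM as deposited the medians were 0.20 and 0.29, and 24 of 32 members had higher means in CIA+THz rather than 14, but Ube2o, Ube2l6 and Ube2e2 remained lower. On that scale 13 of 32 members had a p under 0.05, 10 of them higher and 3 lower. Of all 12366 genes 2598 had one, 2460 higher and 138 lower. The one-sided count of members thus belongs to the rescaled values.

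Ube2o (chr11:116537740-116581447, minus strand, GRCm38, the build named mm10 by the submitters) had 479, 420 and 534 rescaled FPKM in CIA and 232, 340 and 322 in CIA+THz. Every irradiated library was below every CIA library, whereas the Ctrl values of 419, 454 and 289 overlapped both groups. The fall was 1.62-fold, with a log2 fold change of -0.69 ± 0.17 (limma adjusted p = 0.233). The p stayed under 0.05 whichever single library was left out, with log2 fold changes from -0.80 to -0.52, and with FPKM as deposited (-0.42). The fold threshold, and so the call, was missed without CIA library 3 (-0.61), without CIA+THz library 1 (-0.52) and with FPKM as deposited. CIA differed from Ctrl by 0.32 ± 0.20 and CIA+THz from Ctrl by -0.37 ± 0.21, and neither passed the test. Ube2h (chr6:30211289-30304539, minus strand), the other E2 of red cell maturation, had 93.8, 87.4 and 97.0 rescaled FPKM in CIA and 77.4, 86.9 and 75.5 in CIA+THz. Its irradiated libraries were all slightly below CIA, but the difference missed the threshold (-0.22 ± 0.09; limma adjusted p = 0.387). With FPKM as deposited the Ube2h estimate was slightly higher in CIA+THz (0.06 ± 0.11), and the groups overlapped. For Ube2h 22.5% of the read-length windows also occur in other genes, against 0% for Ube2o and Ube2l6.

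Ube2l6 (chr2:84798828-84810335, plus strand) had 8795, 6592 and 7421 rescaled FPKM in CIA and 3824, 4671 and 5558 in CIA+THz. In Ctrl it had 8213, 8723 and 5963. The irradiated libraries were below all 6 others. The fall from CIA was 1.63-fold (log2 -0.71 ± 0.23; limma adjusted p = 0.286) and that from Ctrl was of like size (-0.70 ± 0.26; limma adjusted p = 0.229). With FPKM as deposited the differences were -0.43 and -0.39, under the fold threshold. Against CIA the unadjusted p was also above 0.05 without a filter on low values and with the replicate number as a block, and without CIA library 1 the fold was under the threshold (-0.59). Without CIA+THz library 1 or library 2 the unadjusted p against CIA rose above 0.05, with log2 fold changes of -0.57 and -0.71, and that against Ctrl did so without either of these or without Ctrl library 1 or 2 (-0.71 to -0.56). Ube2e2, a general E2 of low level, was 0.629, 0.201 and 0.898 in CIA and 0, 0.246 and 0 in CIA+THz. The groups overlapped, and the log2 fold change of -1.99 ± 0.71 (limma adjusted p = 0.319) depends on the pseudocount because 2 libraries were listed at 0 (-0.52 with a pseudocount of 1). Ube2e2 also missed the threshold without CIA library 1 or 3 or CIA+THz library 1 or 3 (-1.86 to -1.63).

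**Figure D2:**
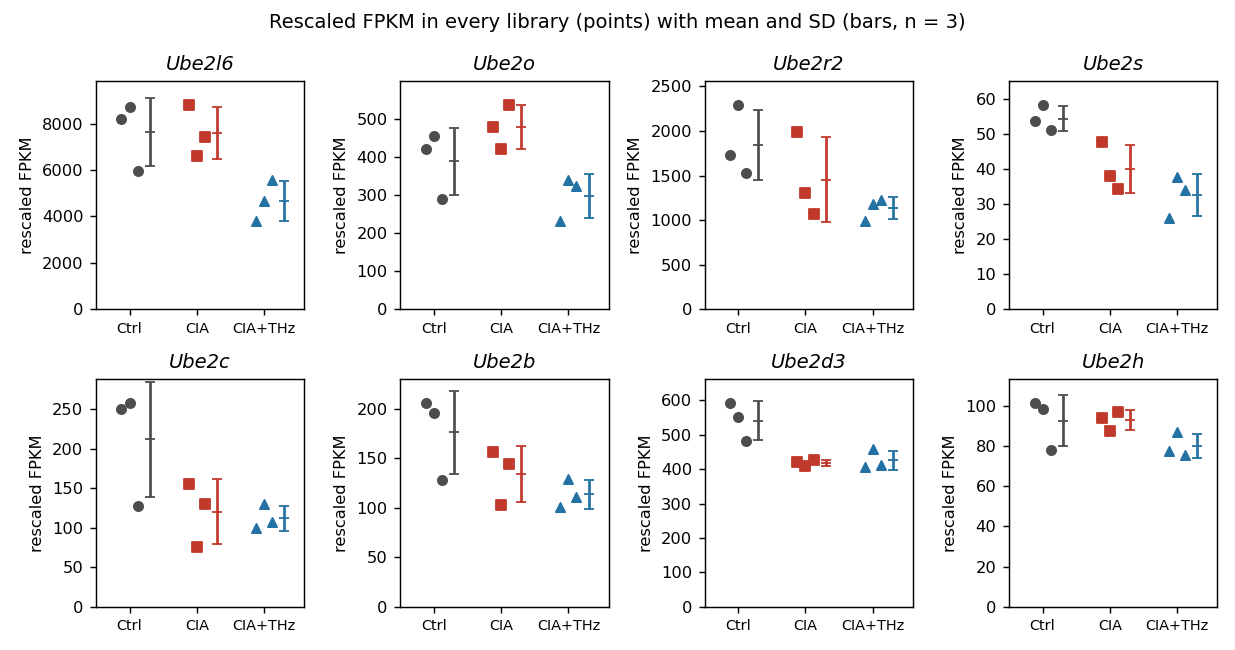
Rescaled FPKM of 8 members in each library (points), with the group mean and SD beside them (bars, n = 3) and axes that start at 0. Ube2l6 and Ube2o in CIA+THz lie below all CIA points, and Ube2d3 in CIA and CIA+THz lies below all Ctrl points.

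Blood cell markers moved in the same comparison. The 18 erythroid markers had a median log2 fold change of -0.17 and 0 of 18 had a p under 0.05 in limma, but their summed rescaled FPKM was 106579 to 121641 in CIA and 60718 to 85347 in CIA+THz, with no marker at 0. That sum is mostly Alas2, whose mean was 91159 ± 5537 (SD, n = 3) in CIA and 55983 ± 8958 in CIA+THz (limma adjusted p = 0.556), and 5 of the 18 markers had higher estimates. Of 12 neutrophil markers 10 were lower on p alone (sum 14765 to 19452 in CIA and 10849 to 12328 in CIA+THz). Of 12 monocyte markers 8 were lower (5616 to 6245 against 3758 to 4062). Of 9 platelet markers 6 were lower (4287 to 5291 against 3589 to 4310), while 8 of 13 T cell markers were higher (341 to 386 against 412 to 548). None of these lists had a gene at 0 in all libraries of a group. Their part in the Ube2o and Ube2l6 values was not tested. Scaling libraries to the erythroid markers uses the mean of their log2 values, which differed by only -0.14 here. Under it Ube2o was at -0.55 ± 0.17, with the unadjusted p under 0.05 but the fold under the threshold. Ube2l6 was at -0.56 ± 0.25 and no longer passed. That small shift does not follow the fall of the Alas2 means, so these values do not test the part of red cell content.

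The third comparison, CIA+THz against Ctrl, shares its libraries with the other 2. Of the 32 members 4 were called, each lower: Ube2s, Ube2r2, Ube2c and Ube2l6. Of all genes tested 7.88% were called in either direction and 3.24% were called lower. On p alone 7 members were lower and none higher, with Ube2b, Ube2f and Ube2d3 added (all genes 18.1%, 9.69% lower). On the adjusted p 0 of 32 members passed, against 0.105% of all genes. The median log2 fold change was -0.13 for the members and 0.039 for all genes, and 22 of 32 members had lower estimates. With FPKM as deposited that median was 0.17 (all genes 0.33), 22 of 32 had higher estimates and 0 members were called in limma. The 8 members with a p under 0.05 were then 4 higher and 4 lower. Of all 12366 genes 1716 were called on that scale, and 2954 had a p under 0.05, 2662 higher and 292 lower.

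Ube2s gave the smallest p of any member. Its values of 25.9, 37.6 and 33.8 rescaled FPKM in CIA+THz were all below the Ctrl values given above, a 1.69-fold fall (-0.75 ± 0.15; limma adjusted p = 0.0991). Ube2r2 (chr4:41135743-41193380, plus strand) had 1728, 2286 and 1526 rescaled FPKM in Ctrl and 994, 1178 and 1228 in CIA+THz. The groups were apart, with the CIA values of 1988, 1307 and 1067 between and across them. Its log2 fold change was -0.69 ± 0.19 (limma adjusted p = 0.146). Ube2s and Ube2r2 kept a p under 0.05 whichever library was left out, but not always the fold threshold. Both missed it without CIA+THz library 1 (-0.60 each), as Ube2r2 did without Ctrl library 2 (-0.52). Ube2c (chr2:164769898-164778822, plus strand), which starts chains on APC/C substrates, had 251, 258 and 128 rescaled FPKM in Ctrl and 99.5, 130 and 108 in CIA+THz. The CIA libraries had 156, 75.8 and 130. Ctrl library 3 was lower than the other 2 and overlapped CIA+THz. The log2 fold change of Ube2c was -0.86 ± 0.27 (limma adjusted p = 0.175), and its unadjusted p rose above 0.05 without Ctrl library 1 or 2 or without CIA+THz library 1 or 3 (-0.83 to -0.68). Ube2t, the E2 of the Fanconi anemia repair pathway, was listed at 0 in 4 of 9 libraries and reached 0.745 at most. Its log2 difference between CIA+THz and Ctrl was 1.31 ± 0.93.

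The remaining members with a p under 0.05 showed smaller differences. Ube2b was 176 ± 42.1 (SD, n = 3) rescaled FPKM in Ctrl and 114 ± 14.6 in CIA+THz (log2 -0.61 ± 0.20; limma adjusted p = 0.181). Its close relative Ube2a was 23.2 ± 1.91 and 27.4 ± 4.69, with a log2 difference of 0.23 ± 0.15 that missed the threshold. Ube2f, a NEDD8 E2, was 68.8 ± 15.5 in Ctrl and 44.6 ± 8.11 in CIA+THz, with no overlap (-0.61 ± 0.21; limma adjusted p = 0.195). Ube2m, the other NEDD8 E2, was 22.3 ± 4.40 and 19.4 ± 7.43. Ube2d3 averaged 541 ± 56.1 for Ctrl, 419 ± 8.25 for CIA and 425 ± 28.5 for CIA+THz, so that the irradiated libraries had means near those of CIA (log2 0.02 ± 0.09). Against Ctrl, Ube2b lost its p under 0.05 without Ctrl library 1 or 2 or CIA+THz library 1 or 3 (-0.60 to -0.48), Ube2f without Ctrl library 1 or 2 or CIA+THz library 1 (-0.54 to -0.45), and Ube2d3 without Ctrl library 1 or CIA+THz library 1 or 3 (-0.32 to -0.28). With FPKM as deposited, Ube2b (-0.30), Ube2f (-0.31) and Ube2d3 (-0.04) also missed it.

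**Figure D3:**
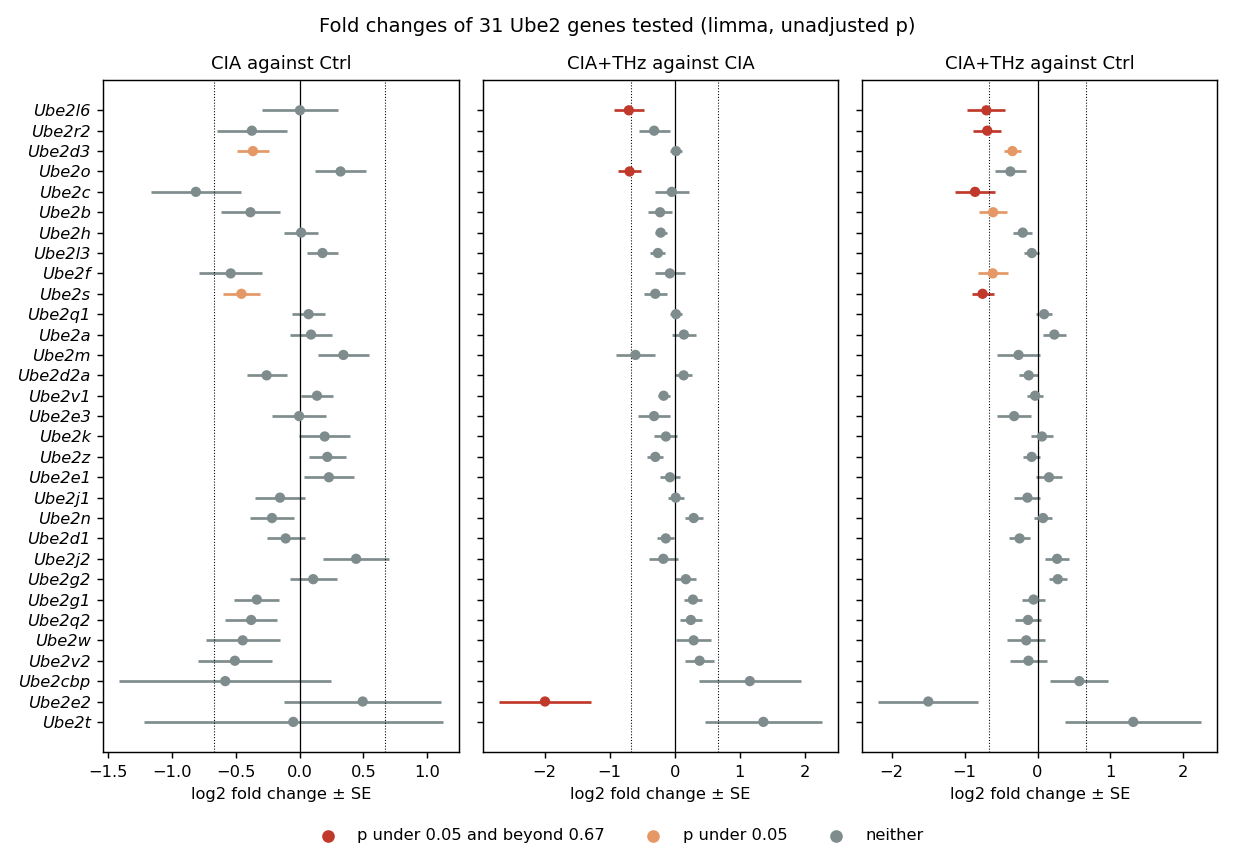
Log2 fold change of 31 of the 32 members tested in the 3 comparisons (points, with lines of ±1 SE), with dotted lines at -0.67 and 0.67 and colours for the unadjusted limma p. Every coloured point is to the left of 0, and the 3 genes at the bottom have the widest errors.

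The erythroid markers moved with the lower members of this comparison. All 18 had lower estimates in CIA+THz than in Ctrl, 11 with a limma p under 0.05, and their median log2 fold change was -0.70. Their summed rescaled FPKM was 89681 to 139662 in Ctrl. In CIA against Ctrl 5 of 18 were called lower, with a median of -0.49. Scaling the libraries to these markers moves every gene nearly alike, by the markers' own mean difference of -0.73 between CIA+THz and Ctrl. The median of all genes then became 0.73 and that of the members 0.58, while Ube2l6 (0.02 ± 0.15), Ube2r2 (0.04 ± 0.17), Ube2s (-0.03 ± 0.21) and Ube2c (-0.13 ± 0.19) lay near 0. These values say that the 4 members differed by about as much as the erythroid markers and nothing more about them. Markers of other cells moved as well. Of 12 neutrophil markers 7 were lower and 3 higher on p alone (sum 12688 to 21425 in Ctrl and 10849 to 12328 in CIA+THz). Of 12 monocyte markers 8 were higher and 1 lower (3278 to 3630 against 3758 to 4062). Of 9 platelet markers 4 were lower (4538 to 5613 against 3589 to 4310), and 7 of 10 B cell markers were higher (471 to 558 against 608 to 790). No gene of these lists was at 0 in all libraries of a group, and their part in the members' values was not tested. Proliferation markers, which could be read beside Ube2c and Ube2s, had 1 of 14 lower on p and none higher. Their median log2 fold change was 0.20, with 8 estimates higher and 6 lower. Their means over the 9 libraries ran from 0.135 (Birc5) to 25.0 (Mki67) rescaled FPKM, below those of Ube2c (148) and Ube2s (42.2). With FPKM as deposited, Ube2s (-0.45), Ube2r2 (-0.38), Ube2c (-0.55) and Ube2l6 (-0.39) kept the lower direction and an unadjusted p under 0.05 against Ctrl, but none was beyond 0.67.

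**Figure D4:**
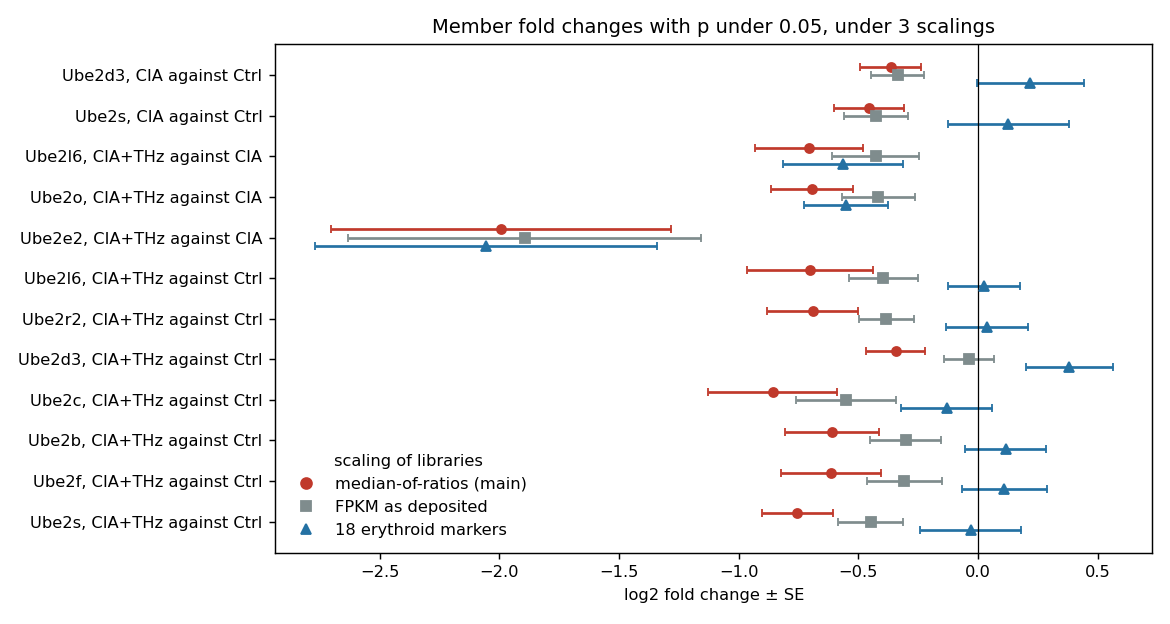
Log2 fold changes (points, with bars of ±1 SE) of the members with an unadjusted p under 0.05, with libraries scaled by median of ratios, left as deposited or scaled to 18 erythroid markers. In CIA+THz against CIA all points of Ube2o, Ube2l6 and Ube2e2 stay below 0, where the erythroid scaling leaves the median of all genes at 0.16. It moves all genes by more against Ctrl (medians of 0.54 for CIA and 0.73 for CIA+THz), and the members' points move with them.

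Across the 3 groups 9 of 32 members had a p under 0.05 in the limma F-test, beside 21.3% of all genes. In order of rising p they were Ube2s, Ube2o, Ube2d3, Ube2l6, Ube2c, Ube2b, Ube2r2, Ube2f and Ube2e2. None passed after adjustment, the smallest adjusted p being 0.0692, whereas 2.53% of all genes did. On the rescaled values these genes fell into patterns that differ in where the drop was estimated. Ube2o, Ube2l6 and the low Ube2e2 had their drop between CIA and CIA+THz. Ube2d3 had its difference between Ctrl and the arthritic groups. Ube2s, Ube2c, Ube2r2, Ube2b and Ube2f had their highest mean in Ctrl and their lowest in CIA+THz. Each of these had the larger part of its drop between Ctrl and CIA. For Ube2c and Ube2f it was nearly all there (log2 -0.81 and -0.54), with small differences between CIA+THz and CIA (-0.04 and -0.07). Ube2s, Ube2b and Ube2r2 had -0.46, -0.38 and -0.37 in CIA against Ctrl, and -0.30, -0.22 and -0.32 in CIA+THz against CIA. With FPKM as deposited, Ube2d3 (0.30), Ube2c (0.23), Ube2f (0.20) and Ube2b (0.05) had higher estimates in CIA+THz than in CIA. Those of Ube2s (-0.02) and Ube2r2 (-0.04) were lower. On that scale the median of all genes was 0.29, and Ube2d3 had an unadjusted limma p under 0.05 against CIA. Its CIA+THz level was then near Ctrl (-0.04), so its pattern above belongs to the rescaled values.

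Several members of other roles did not pass on the rescaled values. Ube2n, which builds chains used in NF-kB signalling, was 9.79 ± 1.37 rescaled FPKM in CIA and 11.9 ± 0.28 in CIA+THz (log2 0.29 ± 0.14; limma adjusted p = 0.422). Its partners are Ube2v1 and Ube2v2, which have no catalytic cysteine. The log2 differences in the same comparison were -0.17 ± 0.09 for Ube2v1 and 0.38 ± 0.22 for Ube2v2. Most of Ube2v1 (85.4% of its read-length windows) is shared with another annotated gene, so its level is uncertain. Ube2l3, which works with HECT and RBR ligases, was 63.8 ± 7.28 in CIA and 53.3 ± 4.64 in CIA+THz (-0.26 ± 0.12; limma adjusted p = 0.405). Among Ube2g1, Ube2g2, Ube2j1, Ube2j2, Ube2k and Ube2r2, the E2 enzymes of degradation chains and the endoplasmic reticulum, Ube2r2 was the one with a p under 0.05, against Ctrl. With FPKM as deposited, where the median of all genes was 0.29, Ube2n (0.57), Ube2v2 (0.65), Ube2g1 (0.55) and Ube2j1 (0.29) had an unadjusted p under 0.05 in CIA+THz against CIA.

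The partners of these enzymes were read from lists of the pathway. ISG15 itself (Isg15), the modifier that Ube2l6 carries, was 52.3, 29.1 and 27.2 rescaled FPKM in CIA and 24.4, 15.4 and 17.1 in CIA+THz. All irradiated libraries were below CIA, and Isg15 was lower by the same rule (-0.89 ± 0.29; limma adjusted p = 0.289). The Ctrl values of 40.2, 30.1 and 16.7 overlapped both groups. Undoing the library factors makes the CIA and CIA+THz values of Isg15 overlap. Uba7, its E1, did not pass (-0.08 ± 0.19), nor did the ISG15 ligase Herc6 (0.45 ± 0.23), the ligase Trim25 (-0.11 ± 0.17) or the protease Usp18 (0.16 ± 0.31). Of 12 interferon markers 0 had a p under 0.05 in this comparison in limma, with a median of -0.20. In CIA against Ctrl, 1 of these 6 genes of ISG15 conjugation was called, Herc6, and was lower (-0.78). Herc6 had 8.01, 8.10 and 6.94 rescaled FPKM in Ctrl and 4.79, 5.25 and 3.39 in CIA. None of the 6 passed there on the adjusted p.

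Among the genes that encode ubiquitin itself, Ubb had 4154, 3548 and 3151 rescaled FPKM in CIA and 2379, 2837 and 2982 in CIA+THz. The irradiated libraries were all below CIA, while the Ctrl values of 4855, 5562 and 2570 overlapped both groups. The difference of Ubb from CIA missed the threshold (-0.40 ± 0.18; limma adjusted p = 0.412). Undoing the library factors makes the CIA and CIA+THz values of Ubb overlap. Rps27a, which encodes ubiquitin fused to a ribosomal protein, had 1084, 805 and 805 in CIA and 811, 862 and 845 in CIA+THz, and the groups overlapped.

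**Figure D5:**
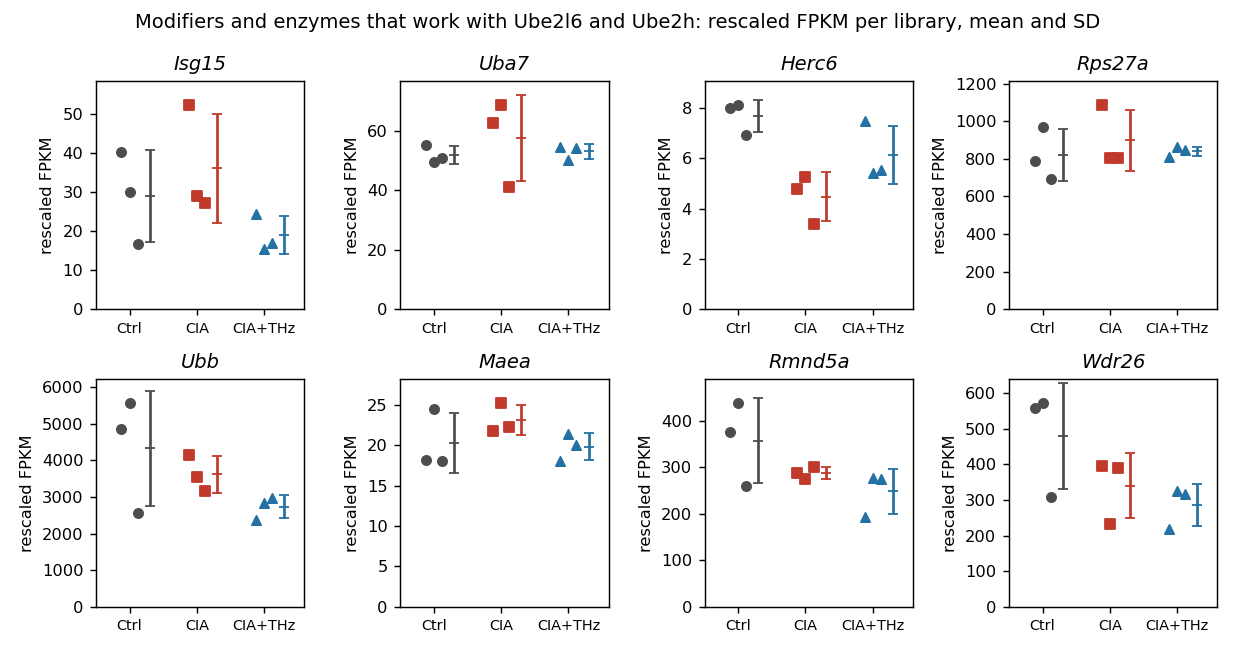
Rescaled FPKM per library (points) with group mean and SD (bars, n = 3) for Isg15, Uba7 and Herc6 of the ISG15 relay, the ubiquitin genes Rps27a and Ubb, and Maea, Rmnd5a and Wdr26 of the CTLH ligase. On this scale Isg15, Ubb and Maea in CIA+THz lie below all CIA points, and the Uba7 groups overlap. Undoing the library factors makes the CIA and CIA+THz values of Isg15, Ubb and Maea overlap.

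Of 10 genes of E1 and modifier activation, Mocs3 was called in CIA against Ctrl, and was higher (1.13 ± 0.26; limma adjusted p = 0.107), as it was in CIA+THz against Ctrl (0.68 ± 0.27; limma adjusted p = 0.253). The main ubiquitin E1, Uba1, did not pass in any comparison. The CTLH complex is the E3 that works with Ube2h. Its catalytic subunit Maea was 18.2, 24.5 and 18.1 rescaled FPKM in Ctrl and 21.8, 25.2 and 22.3 in CIA. The CIA+THz libraries had 18.1, 21.4 and 20.1, all below CIA, while the Ctrl values overlapped both groups. The difference of Maea from CIA missed the threshold (-0.22 ± 0.11; limma adjusted p = 0.455). Undoing the library factors makes the CIA and CIA+THz values of Maea overlap. None of the 11 CTLH genes had a limma p under 0.05 in CIA+THz against CIA. The subunit Wdr26 was called lower in CIA+THz against Ctrl (-0.71 ± 0.27; limma adjusted p = 0.236). On p alone Ypel5 was lower there too (-0.52 ± 0.18; limma adjusted p = 0.206). Ranbp9 was lower on p alone in CIA against Ctrl (-0.30 ± 0.12; limma adjusted p = 0.259). Among 16 APC/C genes, the complex that uses Ube2c and Ube2s, 1 was called against Ctrl in CIA+THz, Anapc13 (-1.04 ± 0.28; limma adjusted p = 0.144). On p alone Anapc16 was also lower there (-0.43) and Anapc5 higher (0.39). In CIA+THz against CIA, Anapc2 (-0.41) and Anapc13 (-0.667) were lower on p alone. In CIA against Ctrl, Anapc11 was higher (0.55) and Anapc16 lower (-0.50) on p alone. Of 8 E2 genes without the Ube2 name, none was called in any comparison. On p alone the autophagy E2 Atg3 was lower in CIA+THz than in Ctrl (-0.59 ± 0.13; limma adjusted p = 0.121) and than in CIA (-0.29 ± 0.09; limma adjusted p = 0.279). Birc6, a very large E2 that inhibits apoptosis, was lower in CIA than in Ctrl (-0.37 ± 0.14; limma adjusted p = 0.251) with the opposite difference between CIA+THz and CIA (0.37 ± 0.13; limma adjusted p = 0.319).

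Promoter windows were searched for motifs of the factors that govern red cell, interferon and cell cycle genes. RefSeq (GRCm38.p6) had a window of 250 bases before the start for 30 of the 37 members, and none was used for Ube2o. The window of Ube2l6 is shown because it is the highest member, and that of Ube2c because it was rich in 1 motif. The Ube2c window is printed up to the start of the gene in GENCODE, which leaves 219 bases.
Ube2l6, chr2:84798578-84798827, plus strand: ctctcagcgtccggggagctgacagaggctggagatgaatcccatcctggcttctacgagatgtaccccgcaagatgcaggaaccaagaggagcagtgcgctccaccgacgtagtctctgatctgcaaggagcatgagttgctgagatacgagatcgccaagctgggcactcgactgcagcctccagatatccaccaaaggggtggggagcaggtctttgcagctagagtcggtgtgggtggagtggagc
Ube2c, chr2:164769679-164769897, plus strand: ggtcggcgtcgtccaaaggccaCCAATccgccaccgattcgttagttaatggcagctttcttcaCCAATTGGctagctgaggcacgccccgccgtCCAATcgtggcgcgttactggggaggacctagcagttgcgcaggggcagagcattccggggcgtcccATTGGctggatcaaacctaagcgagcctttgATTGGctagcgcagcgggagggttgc
Capitals mark CCAAT on either strand. Ube2c held 6 matches, of which 1 pair overlaps as a palindrome, and 33.9% of 32851 promoters hold at least 1, as do those of 9 of the 30 members. The cell cycle motif TTTGAA was in 16.0% of promoters and in 4 members, Ube2c, Ube2d2b, Ube2f and Ube2z, in Ube2c within the bases not printed. The GATA motif AGATAA was in 9.99% of promoters and in 1 member, Ube2h, in the window of an internal start. The interferon motif, GAAA and GAAA with 2 bases between, was in 2.98% of promoters and in 1 member, Ube2dnl1, which was at 0. None of the motifs searched was in the Ube2l6 window, which says only that these letters are not there.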

How the data were processed

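Strand setting, annotation and filters are not given in the sources used here; the submitters' processing notes name bcl2fastq 2.0, HISAT2, StringTie, DESeq2 and the mm10 build. The authors deposited FPKM per gene for 9 libraries; counts were not used here. FPKM were divided by median-of-ratios factors over 10312 genes above 0 in every library. Genes with a mean of at least 0.1 were tested on log2(rescaled FPKM + 0.1) by limma 3.58.1 in R 4.3.3 (variance trend, each pair fitted on its 6 libraries, Benjamini-Hochberg adjustment over 12366 genes), and fold changes are on that scale, which understates those of low genes. The code was tested on simulated data. Named members were those with p under 0.05 in a pair or across groups, Ube2o, Ube2h, Ube2l6, Ube2c, Ube2s, Ube2t, Ube2l3, Ube2n, Ube2m, the 5 highest and those at 0; others illustrate a pathway. Some results are not reported here. Members and lists were chosen with earlier results of these data known. The labels do not say that libraries of a group are different mice, so p-values measure the spread between these libraries. Alternatives covered scaling, pseudocount, filter, fit and left-out libraries.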

Additional observations from a re-analysis of the deposited data

How the results depend on the processing

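Leaving out single libraries gave 0 to 2 members called for CIA against Ctrl, 0 to 4 for CIA+THz against CIA, 0 to 8 for CIA+THz against Ctrl and 2 to 10 across the groups. For CIA against Ctrl the count was 2 without Ctrl library 3 or CIA library 1 and 1 without CIA library 3. For CIA+THz against CIA it was 1 without CIA library 1 or 3, and 0 and 2 without CIA+THz library 1 and 2. In CIA+THz against Ctrl it was 2, 1 and 8 without Ctrl library 1, 2 and 3, and 0 and 6 without CIA+THz library 1 and 2. Across the groups it was 2 and 4 without Ctrl library 1 and 2, and 3 and 5 without CIA+THz library 1 and 3. The 12 member differences with a p under 0.05 kept their direction in all 72 such refits, 29 of which lost that p. For the count in CIA against Ctrl, p alone gave 2, and FPKM as deposited, a pseudocount of 1, a mean of at least 1 and 1 fit of all 3 groups gave 1 each. For CIA+THz against CIA, the adjusted p gave 0, and FPKM as deposited gave 1. For CIA+THz against Ctrl, p alone gave 7, and the adjusted p and FPKM as deposited gave 0. Across the groups, the fit without a variance trend and an analysis of variance on linear values gave 4 each, and the adjusted p gave 0.

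Replicate numbers named the libraries without pairing them, as deviations of same-numbered libraries correlated between -0.052 and 0.031. With the replicate number as a block, the count was 1 in CIA+THz against CIA and 4 across the groups.

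Scaling to the erythroid markers was chosen after seeing the data. Of 32 members it gave 8 called for CIA against Ctrl, 1 for CIA+THz against CIA and 10 for CIA+THz against Ctrl. Of all genes 23.6%, 5.28% and 38.4% were called in these comparisons, so the counts say little of the members. Across the groups it gave 15 members, and the share of all genes was not counted there. This scaling moves all genes nearly alike (median of all genes 0.54, 0.16 and 0.73 in the 3 comparisons of pairs), so signs of small differences turn by construction. These were Ube2d3 (0.22) and Ube2s (0.13) in CIA against Ctrl, and Ube2b (0.12), Ube2d3 (0.38), Ube2f (0.11), Ube2l6 (0.024) and Ube2r2 (0.037) in CIA+THz against Ctrl, all log2 fold changes that were negative in the main scaling and did not pass here. The causes of the other changes were not tested. With 3 libraries a group and FPKM without counts, the precision of low members such as Ube2e2 and Ube2t cannot be set.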
